A study of Saccharomyces cerevisiae with 30 samples.

Results

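S15_YRR pre-40S particles were set against WT pre-40S particles of budding yeast (Saccharomyces cerevisiae), using DMS-MaPseq of the 20S pre-rRNA that both contain. S15_YRR is a variant of S15, a ribosomal protein of the small subunit head encoded by RPS15 (YOL040C); the sources used here do not give the altered residues. Particles of both kinds came from yeast cultures in YPD, a rich medium, harvested at mid-log phase, and were purified through a TAP tag on Rio2, so that both carry tagged Rio2 and only particles bound to Rio2 were sampled. Each biological replicate, 3 of S15_YRR and 5 of WT, had 1 library from particles treated with 1% dimethyl sulfate (DMS) at 30 °C for 5 min and 1 untreated library (NC), which makes 16 of the 30 samples of the series. The members were the A and C of 18S rRNA (1800 positions) and of the first 212 positions of internal transcribed spacer 1 (ITS1) with an effective depth, the reads that can report on a position, of at least 1000 in all 16 libraries. They numbered 873 of 923, with 502 A and 371 C. Of these, 116 (84 A and 32 C) had a mean mutation rate with DMS of at least 2 times the mean untreated rate and were tested. The other 757 fell short of this ratio, which was taken over the replicates of both groups together. They were not tested, and no statement is made on whether they changed.

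DMS methylates the pairing face of A and C where no base pair, protein or fold covers it, and reverse transcription then reads the methylated base as a mutation. The 40S subunit leaves the nucleus as a precursor whose 18S rRNA still carries ITS1, and the nuclease Nob1 later cuts at site D, the 3' end of 18S. Until then assembly factors hold the particle: Rio2, an ATPase of the RIO kinase family, sits on the head beside the decoding centre, and S15 (uS19) is a head protein near the same place. The head is folded from the 3' major domain of 18S, and its helix 33 (h33) forms the beak. A mutation rate is an average over all particles of a library, so that a full change in some particles and a partial change in all of them cannot be told apart.

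Stretches of the deposited precursor sequence carry the results and are printed 5′ to 3′ as RNA, in lower case with the nucleotides under discussion in capitals. The first runs from C1215 to U1266, over the arm of h33, with A1219 and C1246 in capitals. The second covers the end of 18S and the start of ITS1, from A1790 to U1812, with all its tested nucleotides in capitals. The third is the loop end of helix 24 (h24) of the platform with its tested A993, A998 and A1001 in capitals, and the last is helix 31 (h31) of the head with U1191, which carries a hypermodified base in mature 18S.
arm of h33: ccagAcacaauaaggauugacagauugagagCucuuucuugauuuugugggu
18S 3' end and ITS1: AaggAucAuuAAAgAAAuuuAAu
h24 loop: cgaAgaugAucAgauaccgucgu
h31: aauuugacUcaacacgggga

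The median effective depth per position was 6033.5 to 6653 in the S15_YRR DMS libraries and 5247 to 17414.5 in the WT DMS libraries; in the untreated libraries it was 6194.5 to 6867 in S15_YRR and 3955 to 12573.5 in WT. The untreated profiles fell into sets that cross the particles: the 3 S15_YRR replicates and WT replicates 4 and 5 formed set 1, WT replicates 2 and 3 belonged to set 2, and WT replicate 1 stood alone. The labels do not say what the sets are. WT replicate 1 also had a lower rate with DMS than without it: its mean rate with DMS minus that without it was -0.331 percentage points over A and -0.433 points over C, while over A this difference was 0.367 to 0.462 points in S15_YRR and 0.189 to 0.558 points in WT replicates 2 to 5. Results are therefore also given within set 1 (3 S15_YRR and 2 WT replicates) or without WT replicate 1.

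Between S15_YRR and WT, the DMS mutation rate of the precursor differed past the threshold at 1 nucleotide, C1246 in the arm of h33, which was higher in S15_YRR. It was the only call among 116 tested nucleotides (0.862% called; edgeR quasi-likelihood test with Benjamini-Hochberg adjustment, threshold 0.05), and 9 had an unadjusted p below that threshold, 6 higher and 3 lower in S15_YRR. Of the 116 log2 changes of the DMS rate, 58 were above 0, the median was 0.00, and 103 were smaller than 0.5 in size. The standard error of a log2 change had a median of 0.20, with a range of 0.10 to 0.53, which sets the size of difference that could be seen at these nucleotides.

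**Figure D1:**
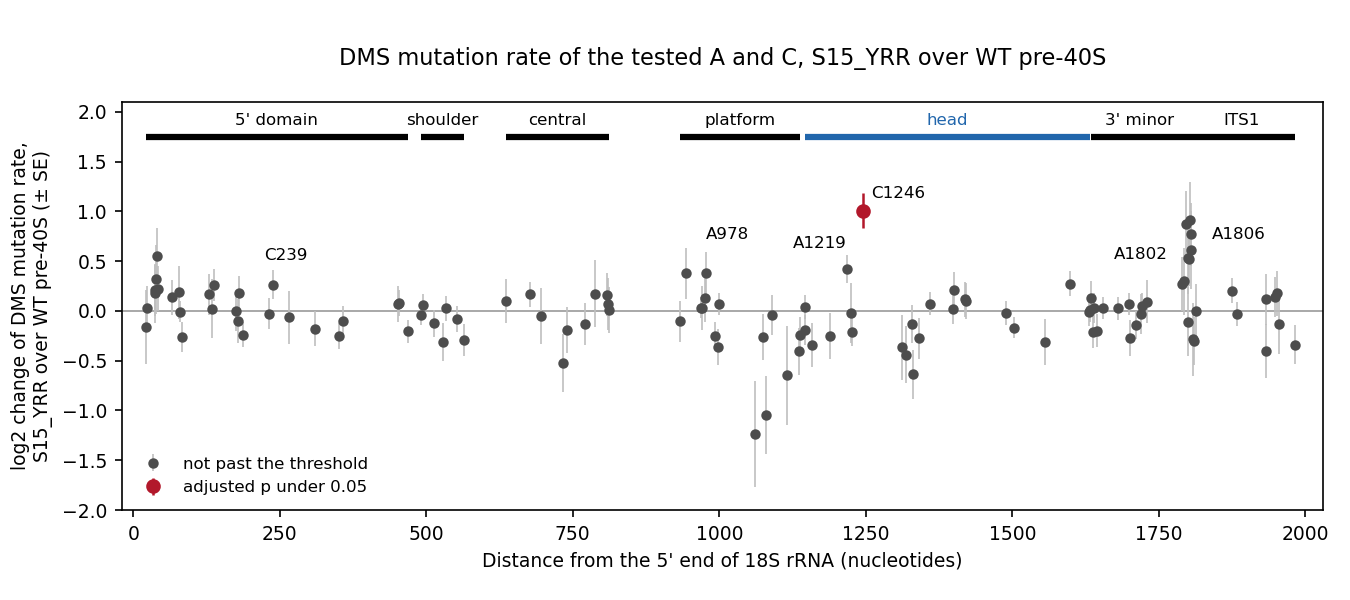
log2 change of the DMS mutation rate, S15_YRR over WT pre-40S, with its standard error, for the 116 tested nucleotides against the distance from the 5' end of 18S; bars above give the span of the tested nucleotides of each region. C1246 at 1.01 is the only point past the threshold, and most points lie close to 0.

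At C1246, on the 3' side of the arm of h33, the mutation rate with DMS was 5.56%, 5.37% and 5.13% in S15_YRR replicates 1 to 3, against 1.16%, 1.85%, 2.01%, 2.45% and 3.56% in WT replicates 1 to 5. All 3 S15_YRR replicates were above all 5 WT replicates; the lowest 95% Wilson bound in S15_YRR was 4.59% and the highest in WT was 4.07%, both covering counting error only. The untreated rate at C1246 was 1.08%, 1.42% and 1.05% in S15_YRR, against 1.02%, 0.704%, 0.95%, 0.755% and 1.13% in WT, so these groups overlapped. Reactivity, the DMS rate minus the untreated rate divided by the mean of the most reactive nucleotides of the library, was 1.03, 0.969 and 0.964 in S15_YRR and 0.05, 0.434, 0.399, 0.320 and 0.667 in WT. The log2 change of the DMS rate after library scaling was 1.01 ± 0.18 (SE; edgeR adjusted p = 0.00864), and it was 0.95 ± 0.18 within set 1 (edgeR adjusted p = 0.00497) and 0.91 without WT replicate 1. It was past the threshold in all 8 fits that each left out 1 replicate. Without S15_YRR replicate 1, 2 or 3 it passed narrowly (edgeR adjusted p = 0.0431, 0.0485 and 0.0493). The call was lost when the change was tested relative to the untreated libraries (log2 change 0.46, edgeR adjusted p = 0.401), with limma on log2 reactivity (1.38, limma adjusted p = 0.687), and, at a change of 0.95 to 1.06, in 3 further settings: with the 90th to 98th percentile scale, with no signal filter, and within set 1 with that filter redone.

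A1219 lies directly 5' of the first base pair of h33 and was the other head nucleotide at which the replicates of S15_YRR and WT were fully separated in reactivity. Its DMS rate was 2.18%, 1.95% and 1.91% in S15_YRR, against 0.892%, 1.2%, 1.03%, 1.65% and 1.35% in WT, where all S15_YRR values exceeded all WT values although the Wilson intervals of S15_YRR replicate 3 (1.58% to 2.29%) and WT replicate 4 (1.36% to 2.0%) overlapped. Reactivity at A1219 was 0.408, 0.401 and 0.365 in S15_YRR and 0.179, 0.301, 0.225, 0.222 and 0.212 in WT. The log2 change was 0.42 ± 0.14 (SE) over all replicates and did not pass the threshold (edgeR adjusted p = 0.503). Within set 1 it was 0.56 ± 0.13 (edgeR adjusted p = 0.0325), where 2 of 116 nucleotides passed (1.72% called), C1246 being the other. The call at A1219 was present in 3 of 23 alternative settings: within set 1, with the set as a term in the fit, and without WT replicate 2.

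**Figure D2:**
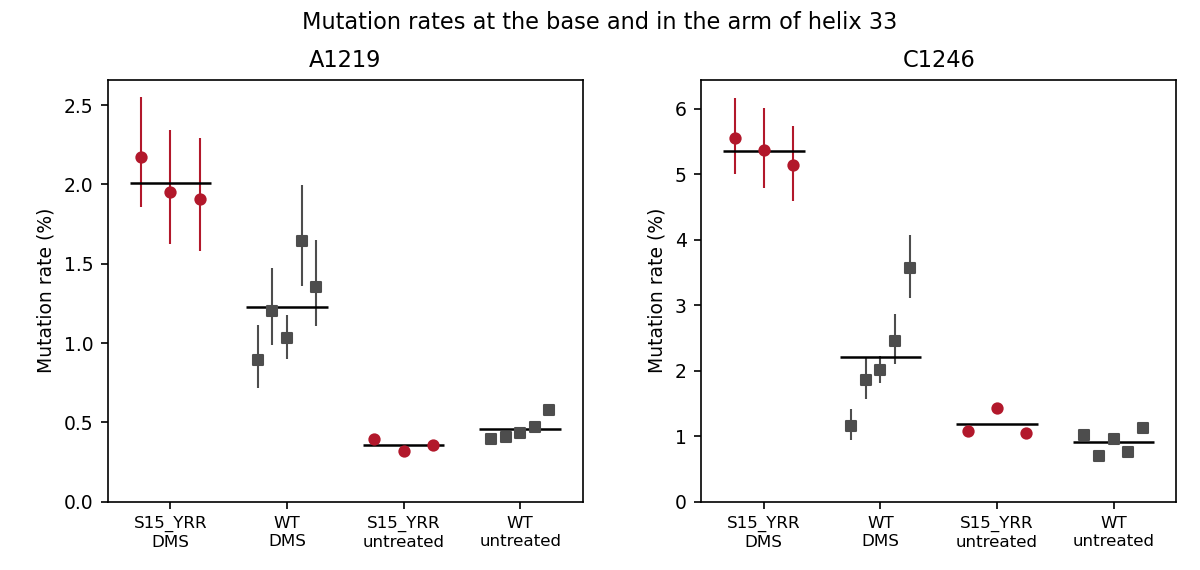
Mutation rate in percent at A1219 and C1246 in each replicate with DMS and without it (untreated), S15_YRR left of WT, with the group mean as a black line and 95% Wilson intervals on the DMS rates. The S15_YRR replicates lie above all WT replicates with DMS at both nucleotides; the untreated rates of the groups overlap at C1246.

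The arm from C1215 to U1266 holds 22 A and C, all of them past the depth minimum, of which 4 were tested. Besides A1219 and C1246 these were A1226 and A1227, which lie past the first base pairs on the 5' side of the arm. Reactivity at A1226 was 0.308, 0.267 and 0.250 in S15_YRR, against 0.270, 0.190, 0.141, 0.202 and 0.270 in WT, and the log2 change was -0.02 ± 0.30 (SE). At A1227 it was 0.695, 0.689 and 0.611 in S15_YRR and 0.506, 0.818, 0.631, 0.658 and 0.639 in WT, with a log2 change of -0.21 ± 0.14. The groups overlapped at both of these adenines, which lie between A1219 and C1246. Relative to the untreated libraries their direction turned, with log2 changes of 0.86 at A1226 and 0.79 at A1227 (edgeR adjusted p = 0.335 and 0.322). In that setting the change was 0.57 at A1219 and 0.46 at C1246, so C1246 did not stand out from the adenines there. The 18 others had DMS rates of 0.825 to 1.69 times their untreated rates; the highest ratio was at A1217, 2 nucleotides before A1219, where the mean DMS rate was 1.92% in S15_YRR and 1.30% in WT. The mean untreated rate at A1217 was 0.95% in S15_YRR and 0.883% in WT.

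C1246 and A1219 also had values in the other particles of the series, which were compared with the same WT libraries, so that the comparisons are not independent. Reactivity of mature 40S was scaled over only those tested nucleotides that passed the depth minimum in its own libraries, so its scale is not quite that of the precursors. The replicates of Rio2_Δloop and those of mature 40S did not all belong to set 1. At C1246 reactivity was 0.987 ± 0.035 in S15_YRR (SD, n = 3), 1.61 ± 0.15 in Rio2_Δloop pre-40S, where a loop of Rio2 is deleted (SD, n = 4), 2.07 ± 0.68 in mature 40S (SD, n = 3) and 0.374 ± 0.222 in the WT precursors (SD, n = 5). At A1219 the S15_YRR replicates averaged 0.391 ± 0.023, those of Rio2_Δloop 0.585 ± 0.122, those of mature 40S 0.602 ± 0.030 and those of WT pre-40S 0.228 ± 0.045. Against WT, C1246 had log2 changes of 1.01 for S15_YRR, 1.54 for Rio2_Δloop and 2.12 for mature 40S, while A1219 had 0.42 for S15_YRR, 0.86 for Rio2_Δloop and 1.15 for mature 40S. Not all named nucleotides had S15_YRR between WT and these particles. In the same order of particles, the changes were -0.01, -0.91 and -2.73 at C1632, and 0.28, -0.22 and -0.78 at A1600. They were -0.37, -1.01 and -3.02 at A998 (S15_YRR -0.09 within set 1), and -0.22, -0.84 and -1.80 at C1639.

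The other tested nucleotides of the head did not pass the threshold. The head held 24 tested nucleotides of 218 members, with 1 call, 10 log2 changes above 0 and a median of -0.02, beside 0.00 over all 116. The first part of the head, h28 to h33, had 10 tested nucleotides with a median log2 change of -0.02 (0.08 within set 1, 0.38 relative to the untreated libraries). A1147, at the neck before h28, had a reactivity of 0.252 ± 0.032 in S15_YRR (SD, n = 3), against 0.290 ± 0.053 in WT (SD, n = 5), and a log2 change of -0.19 ± 0.15 (SE). Its neighbour C1148 had 0.313 ± 0.025 in S15_YRR and 0.259 ± 0.120 in WT, and a log2 change of 0.04 ± 0.12 (SE). Both differences were within the spread of the replicates. C1159, between h28 and h29, had 0.144, 0.0198 and 0.117 in S15_YRR and 0.189, 0.0963, 0.178, 0.198 and 0.144 in WT, with a log2 change of -0.34 ± 0.22 (SE) and overlapping groups. Within set 1 the groups at C1159 were narrowly separated, with a change of -0.41 (edgeR adjusted p = 0.928). Relative to the untreated libraries its change was -0.96 (edgeR adjusted p = 0.322). C1632, at the neck near the 3' end of the head, had 1.05, 1.19 and 1.38 in S15_YRR and 0.745, 1.25, 1.32, 1.15 and 1.09 in WT; its log2 change was -0.01 ± 0.14 (SE).

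The junction of h34, h35 and h38 had the lowest median of the regions, -0.28 over 7 tested nucleotides (-0.32 within set 1, -0.19 without WT replicate 1), with no call and no nucleotide with fully separated groups. Relative to the untreated libraries that median was 0.70, so its direction turned with this setting (0.08 over all 116). Its lowest value was at A1331, with reactivities of 0.104, 0.161 and 0.144 in S15_YRR and -0.032, 0.168, 0.204, 0.199 and 0.156 in WT and a log2 change of -0.63 ± 0.25 (SE; edgeR adjusted p = 0.521; 0.93 relative to the untreated libraries). In h39 to h43 the median over 7 tested nucleotides was 0.02 (-0.01 within set 1, -0.33 relative to the untreated libraries). A1600 in the loop of h43 had 0.398, 0.347 and 0.286 in S15_YRR, against 0.206, 0.259, 0.242, 0.291 and 0.305 in WT, and a log2 change of 0.28 ± 0.12 (SE; edgeR adjusted p = 0.521) that was 0.12 within set 1 and -0.29 relative to the untreated libraries. One S15_YRR replicate at A1600 lay inside the WT range.

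**Figure D3:**
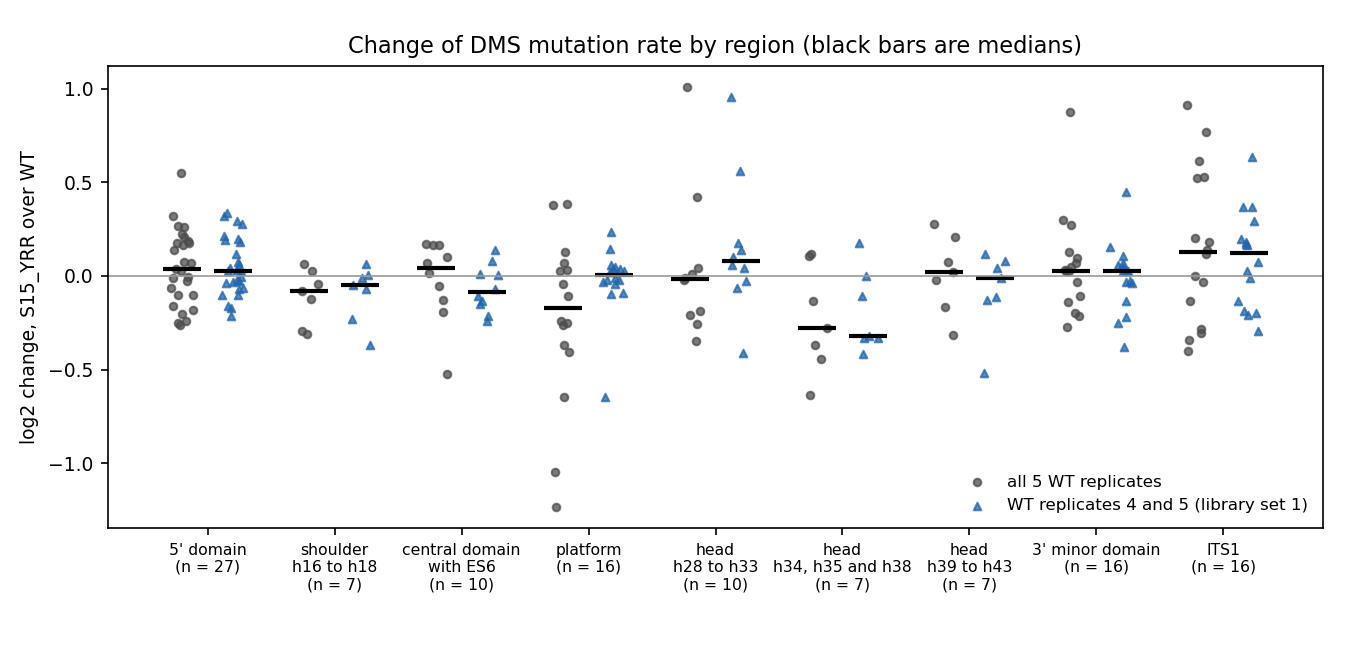
log2 change of the DMS mutation rate, S15_YRR over WT, for each tested nucleotide by region, against all 5 WT replicates (circles) and against WT replicates 4 and 5 of library set 1 (triangles); black bars are medians. Medians lie between -0.28 and 0.13 with all WT replicates, and the low platform points do not recur within set 1 except at A1081.

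Outside the head, no nucleotide of the body, platform or 3' minor domain passed the threshold. The 5' domain had 27 tested nucleotides with a median log2 change of 0.03, the shoulder (h16 to h18, beside the decoding centre) 7 with -0.08, and the central domain with expansion segment 6 had 10 with 0.04; relative to the untreated libraries these medians were 0.08, -0.60 and 0.12. C565 in helix 18 had 0.142, 0.198 and 0.229 in S15_YRR and 0.363, 0.226, 0.261, 0.211 and 0.257 in WT, which overlapped (log2 change -0.29 ± 0.17, SE). In the 5' domain C239 was the nucleotide whose groups did not overlap: its reactivity was 0.317, 0.314 and 0.236 in S15_YRR and -0.0200, 0.235, 0.199, 0.214 and 0.233 in WT, so S15_YRR replicate 3 was barely above WT replicate 2, and its log2 change of 0.27 ± 0.15 (SE; 0.00 relative to the untreated libraries) had an edgeR adjusted p of 0.541.

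The platform had 16 tested nucleotides, a median log2 change of -0.17 and no call; the median was -0.05 without WT replicate 1, 0.00 within set 1 and 0.37 relative to the untreated libraries. A998, in the h24 loop that faces the tRNA path, had reactivities of 0.788, 0.785 and 0.966 in S15_YRR and 1.5, 1.03, 1.29, 0.941 and 0.964 in WT. The WT replicates of set 1 lay among the S15_YRR values at A998, and its log2 change of -0.37 ± 0.18 (SE) over all replicates had an edgeR adjusted p of 0.541, beside -0.09 within set 1. In the same loop end A993 had 0.650 ± 0.054 in S15_YRR (SD, n = 3) and 0.782 ± 0.078 in WT (SD, n = 5), and A1001 had 0.233 ± 0.036 in S15_YRR and 0.209 ± 0.081 in WT; neither passed the threshold. A1062 and A1081 had the lowest log2 changes of all tested nucleotides, -1.23 ± 0.53 and -1.05 ± 0.39 (SE; edgeR adjusted p = 0.521 for both), and within set 1 they were 0.02 and -0.65. Relative to the untreated libraries they were 1.5 at A1062 and 0.19 at A1081, both above 0. A978 was higher in every S15_YRR replicate, at 0.110, 0.0977 and 0.0791, against 0.0109, 0.0499, 0.0373, 0.0772 and 0.0584 in WT (log2 change 0.39 ± 0.21, SE; edgeR adjusted p = 0.541). A1139, beside the central pseudoknot, was the most reactive nucleotide named here, at 5.84 ± 0.65 in S15_YRR (SD, n = 3) and 6.95 ± 1.19 in WT (SD, n = 5), with a log2 change of -0.24 ± 0.18 (SE).

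In the 3' minor domain the 16 tested nucleotides had a median log2 change of 0.03 (-0.37 relative to the untreated libraries) and no call. C1639, which faces the P-site tRNA in the finished subunit, had 0.379, 0.506 and 0.638 in S15_YRR and 0.780, 0.623, 0.616, 0.485 and 0.566 in WT, with a log2 change of -0.22 ± 0.16 (SE). Its neighbour C1640 had 0.133, 0.206 and 0.225 in S15_YRR and 0.258, 0.233, 0.176, 0.163 and 0.174 in WT, with a log2 change of 0.03 ± 0.15 (SE). The groups overlapped at both. A1655, just before h44, the long decoding helix, had 0.239 ± 0.005 in S15_YRR (SD, n = 3) and 0.229 ± 0.048 in WT (SD, n = 5), with a log2 change of 0.03 ± 0.11. The 7 tested nucleotides within h44 had changes of -0.27 to 0.10 and a median of 0.03.

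**Figure D4:**
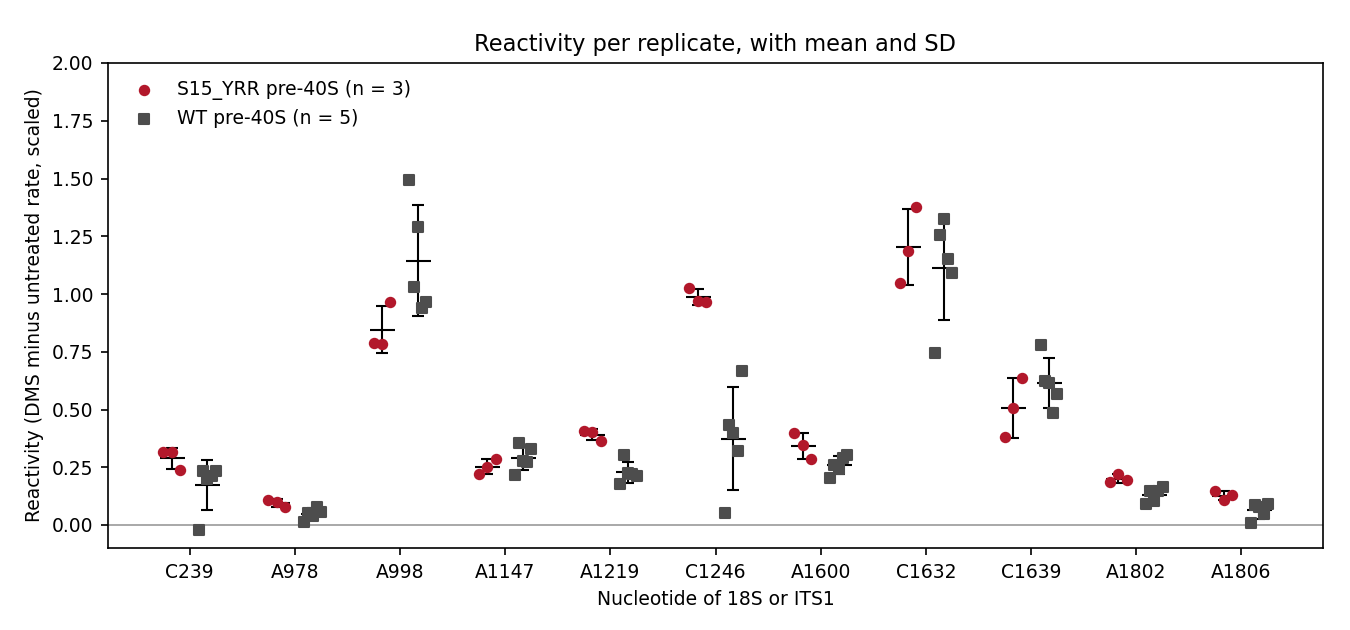
Reactivity of 11 named nucleotides in each replicate, S15_YRR left of WT, with the mean and SD in black. C1246 shows the widest gap between the groups, and A998, A1147, A1600, C1632 and C1639 overlap.

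Around site D, A1797 to A1806 included 7 tested nucleotides, and 6 of their log2 changes were above 0, with a median of 0.61 beside 0.00 over all tested; this stretch was picked after its values were seen. No nucleotide there passed the threshold (edgeR adjusted p = 0.521 at A1797, A1804 and A1806), and within set 1 the median was 0.18. Tested relative to the untreated libraries, 2 of the 7 changes were above 0 and the median was -0.02, with an untreated rate that itself had a median log2 change of 0.48 at these nucleotides. A1802 had reactivities of 0.186, 0.221 and 0.195 in S15_YRR, against 0.0920, 0.146, 0.104, 0.147 and 0.163 in WT, and a log2 change of 0.52 ± 0.27 (SE) that was 0.17 within set 1 and -0.11 relative to the untreated libraries. A1806 had 0.146, 0.107 and 0.128 in S15_YRR, against 0.00779, 0.0886, 0.0772, 0.0489 and 0.0927 in WT, and a log2 change of 0.77 ± 0.32 (SE) that was 0.63 within set 1 and -0.01 relative to the untreated libraries. In reactivity every S15_YRR replicate was above every WT replicate at A1802 and A1806, just past site D, while the groups overlapped at A1801, A1804 and A1805. A1800, the last nucleotide of 18S, had 0.065 ± 0.041 in S15_YRR (SD, n = 3) and 0.085 ± 0.027 in WT (SD, n = 5), and its log2 change was -0.11 ± 0.35. Over all 16 tested nucleotides of ITS1, 9 changes were above 0, with a median of 0.13 (0.12 within set 1, 0.11 relative to the untreated libraries).

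**Figure D5:**
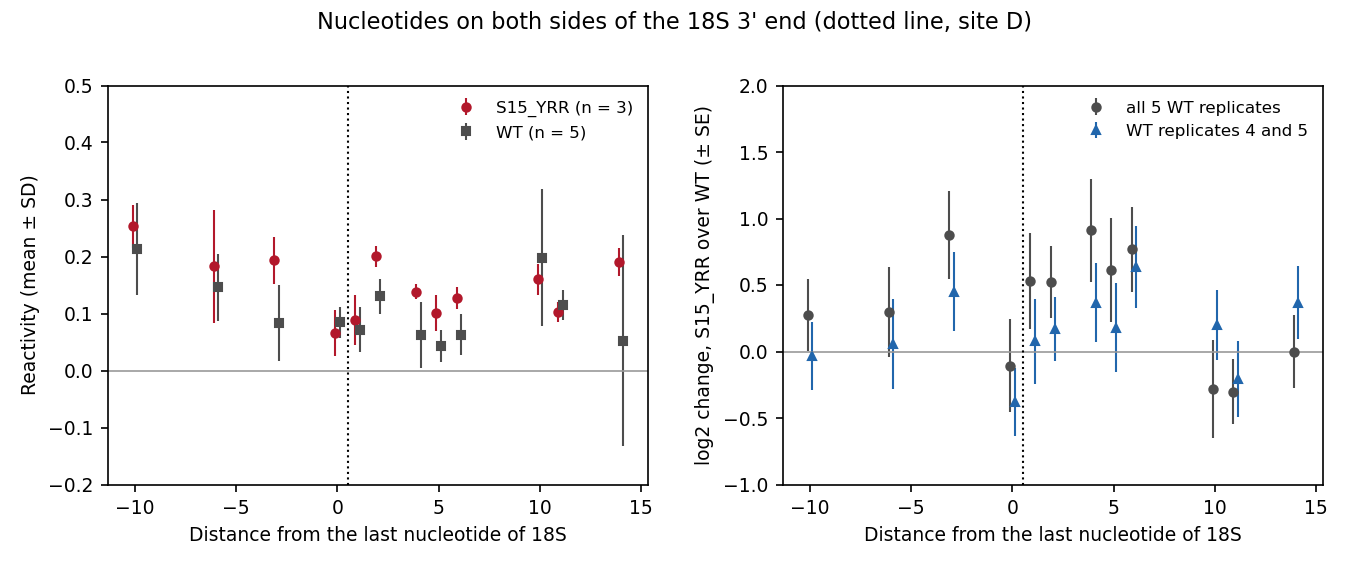
Left, reactivity as mean and SD in S15_YRR and WT, and right, log2 change with its standard error against all 5 WT replicates and against WT replicates 4 and 5, by distance from the last nucleotide of 18S; the dotted line is site D. The changes on either side of the site are mostly above 0 and are smaller against WT replicates 4 and 5 at most of them; relative to the untreated libraries, which are not plotted, the median from A1797 to A1806 is -0.02.

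In all, 6 of 116 tested nucleotides (5.17%) had reactivities that did not overlap between the 3 S15_YRR and the 5 WT replicates: C239, A978, A1219, C1246, A1802 and A1806. All were higher in S15_YRR. Reactivity as a whole also lay higher in S15_YRR: over all 116 the median change of log2 reactivity was 0.18 in the limma fit. Mean reactivity over the 116 was 0.374 in S15_YRR and 0.353 in WT. Without WT replicate 1, 9 nucleotides (7.76%) did not overlap, with A1633 higher and A188 and A1503 lower in S15_YRR added. Within set 1, with 3 against 2 replicates, 25 (21.6%) did not overlap, 11 higher and 14 lower in S15_YRR. The single direction seen over all replicates was therefore not kept there. Full separation in either direction also arises by chance, and more often with fewer replicates. The share expected by chance was not worked out, so these counts do not show that S15_YRR differed. Separation alone is therefore no evidence of a change at C239, A978, A1802 and A1806, which did not pass the threshold. Of the tested nucleotides, which their DMS signal had selected, 3 of 116 (2.59%) lay in base pairs of the 27 helices checked in the sequence, against 150 of the 873 members (17.2%); these helices cover part of 18S and none of ITS1, so the pairing of the others is not given.

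Untreated libraries were compared to see whether the background against which DMS was read, natural base modifications included, differed. Over 1882 positions of all bases with a mean untreated rate of at least 0.1%, no position passed the threshold (0.0% called) with all replicates, although 170 had an unadjusted p below it. DESeq2 also called 0. Without a call, the untreated rate of the DMS-tested nucleotides among these positions still had a median log2 change of -0.38. By region this median was -1.11 in the platform and -1.31 in the junction of h34, h35 and h38, but 0.14 in the shoulder and 0.08 in the 3' minor domain. Within set 1, 5 positions passed (0.266%). U73, U74 and U75, a run of 3 U in the 5' domain, had higher rates in S15_YRR. At U75 they were 1.26%, 1.52% and 1.71% in S15_YRR, against 0.594% and 0.768% in WT replicates 4 and 5 (log2 change 1.19 ± 0.21, SE; edgeR adjusted p = 0.00940). A534 and A1116 had lower rates in S15_YRR. At A534 they were 0.336%, 0.240% and 0.155%, against 0.535% and 0.941% in those WT replicates (log2 change -1.58 ± 0.29, SE; edgeR adjusted p = 0.00940). DMS reactivity at A534 and A1116 did not pass the threshold.

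U1191 in h31, whose modified base is read as a mutation without DMS, had untreated rates of 4.06%, 4.45% and 2.76% in S15_YRR, against 2.05%, 2.45%, 2.92%, 2.65% and 4.26% in WT. The means were 3.76% ± 0.89 in S15_YRR (SD, n = 3) and 2.86% ± 0.84 in WT (SD, n = 5). The difference was 0.893 percentage points, and the values of the groups overlapped (exact two-sided permutation test, p = 0.214). A1781 and A1782 in h45, which are dimethylated in mature 18S, had an effective depth below 1000 in the S15_YRR libraries and in those of WT replicates 2 to 4. WT replicate 1 was also below it at A1781 (734 untreated, 334 with DMS) and with DMS at A1782 (460). WT replicate 5 was below it with DMS at A1782 (967). The untreated rates at A1781 and A1782 were 6.09% to 8.75% and 7.13% to 8.06% in S15_YRR, and 4.99% to 6.80% and 6.26% to 7.12% in WT replicates 2 to 5, while WT replicate 1 had 54.1% and 2.54%.

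The amount of ITS1 in the particles was compared through read depth. The mean depth over ITS1 divided by that over 18S was 0.465, 0.549 and 0.479 in S15_YRR, against 0.851, 0.491, 0.416, 0.621 and 0.595 in WT. The means were 0.498 ± 0.045 in S15_YRR (SD, n = 3) and 0.595 ± 0.165 in WT (SD, n = 5). Their difference was -0.0969, and the values of the groups overlapped (exact two-sided permutation test, p = 0.357). Within set 1 the S15_YRR values were all below both WT values, with a difference of -0.110 and p = 0.2 by the same exact test, the smallest p that 3 against 2 replicates allow.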

How the data were processed

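Per the file headers, the deposited profiles give, for each library and position of the 20S pre-rRNA, counts of mutations, read depth and effective depth, and a mutation rate that the authors computed as a fraction, mutations over effective depth. Aligner, mutation caller and versions are not given in the sources used here, and neither is a genome build. Per the labels, each replicate is a separate biological replicate. From the counts, mutation rates were tested with edgeR 4.0.16 (quasi-likelihood, robust) in R 4.3.3 on the 8 DMS libraries, with effective depth, multiplied by a scale per library (the median over tested nucleotides of its rate relative to the geometric mean of the libraries), entering as a log offset; untreated libraries were fitted alike. Benjamini-Hochberg adjustment ran over all tested positions. Reactivity was divided by its mean between the 90th and 98th percentile of each library. Standard errors come from the fit. Mutations without molecular identifiers are not independent molecules, so intervals cover counting error only. Single values were tested by exact permutation in scipy 1.17.1; Changes relative to the untreated libraries are the interaction of particle and treatment over the 16 libraries; DESeq2 1.42.0 and limma 3.58.1 were alternatives. The fits were also run on simulated counts with a single dispersion, without library sets or a deviant replicate, so that run does not cover these features of the data. DMS libraries of a group differed by more than sampling noise in every pair (chi-square per degree of freedom 1.69 to 7.66), and none was counted as a repeat. Library sets were read from the untreated log rates over 1676 positions (Pearson r 0.865 to 0.947 within set 1, 0.278 to 0.638 between sets).

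The nucleotides named are those called over all replicates or within library set 1, up to 12 per direction with reactivities that do not overlap and reach 0.1, and 16 listed positions with 3 modified sites; of the 16, A1003, A1217 and C1953 fell below the signal minimum. Nucleotides outside this rule (A1226, A1227, A1062, A1081, A993, A1001, A1139, A1331, A1633, A188, A1503 and those around site D) were chosen after their values were seen. Members and lists were chosen with earlier results of these data known. Helix positions are textbook knowledge, kept where the strands were complementary in the deposited sequence. A deposited table of normalized signal was not used here.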

Additional observations from a re-analysis of the deposited data

Results flagged for a closer look

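In 4 of the 25 groups of 5 WT values examined, 1 replicate lay far from the other 4, where chance would give about 1 in 20, and in all 4 it was WT replicate 1. Its reactivity at C239 was -0.0200, against 0.199 to 0.235 in the other WT replicates. Its untreated mutation rate was 2.92% at A1116, 54.1% at A1781 (effective depth 734) and 2.54% at A1782. In S15_YRR the untreated rate was 0.249% to 0.377% at A1116, 6.09% to 8.75% at A1781 and 7.13% to 8.06% at A1782. WT replicate 1 is the only replicate of its library set, and the part of the set in these values was not tested.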

How the results depend on the processing

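The number of DMS calls was 1 with all replicates and in 7 alternatives: without a library scale, at a signal of at least 1.5 or 3 times, at a depth of 500 or 2000, with the 12 pre-40S libraries in the fit, and with DESeq2. It was 0 with the 90th to 98th percentile scale (C1246 adjusted p = 0.108), with no signal filter (0.0666, over 873 nucleotides), at a signal of at least 5 times (25 nucleotides, C1246 not among them), relative to the untreated libraries, within set 1 with the signal filter redone (0.0630, over 176 nucleotides) and with limma on reactivity; 11, 38, 2, 14, 5 and 7 nucleotides had an unadjusted p under 0.05 in these. It was 2 within set 1 at the same nucleotides and 2 with the set as a term, and 1 to 2 when each replicate was left out, with A1219 added without WT replicate 2. C1246 had a log2 change above 0 in all 23 alternatives, from 0.46 to 1.38, and passed in 18. Over the 16 named nucleotides, 30 of 363 alternative values changed sign, none of them at C1246 or A1219. Replicate numbers did not clearly pair the samples: the deviations of same-numbered DMS libraries had correlations of 0.0552, 0.114 and 0.218. S15_YRR replicate 1 correlated best with WT replicate 4 (0.285) and S15_YRR replicate 2 with WT replicate 1 (0.164), while S15_YRR replicate 3 correlated best with WT replicate 3. With the replicate block there were 10 DMS calls and 224 untreated calls, in fits where WT replicates 4 and 5 have no partner and WT replicates 1 to 3 lie in other library sets. Untreated calls were 5 within set 1, 0 when each replicate was left out (59 to 349 unadjusted p under 0.05) and 0 with no rate filter. The difference at U1191 was 0.303 points within set 1 and 0.546 to 1.39 with a replicate left out. That of the ITS1 ratio was -0.0527 in DMS libraries, -0.141 in untreated ones and -0.142 to -0.0327 with a replicate left out. No exact p was under 0.05, but within set 1 or with a replicate left out there are too few replicates for the test to reach it. Depth limits what could be compared at A1781 and A1782, and the signal over background limits the test to 116 nucleotides.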
